A study of Homo sapiens with 5 samples.

Results

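The genes described here are the G1 cyclins and their kinases: the D cyclins CCND1, CCND2 and CCND3, the E cyclins CCNE1 and CCNE2, and the cyclin-dependent kinases CDK4, CDK6 and CDK2. They were chosen by name, 8 genes out of the 18568 with a row in the table used here, and all 8 passed the filter on low values. RNA was measured by sequencing in IMR90, a line of normal human lung fibroblasts. All libraries came from cells that had received a retrovirus expressing RASV12, a permanently active RAS, and puromycin selection, so the controls carry the oncogene too. The cells were seeded on day 10 after infection and transfected 24 hours later with an antagomir, which is a chemically modified antisense RNA that blocks a microRNA. One group received the antagomir against miR-146a (n = 3, libraries A, B and C) and the other a control antagomir (n = 2, libraries B and C). Cells with an empty vector, which the labels mention, and the level of miR-146a itself were not analysed here.

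D cyclins are the regulatory subunits that growth factor and RAS signals induce; they bind CDK4 or CDK6, and the complexes phosphorylate the RB protein in G1. E cyclins then bind CDK2, which completes RB phosphorylation and starts DNA synthesis. In RAS-induced senescence, fibroblasts stop dividing, with inhibitors such as p16 and p21 holding these kinases in check, while cyclin D1 is known to stay abundant in senescent fibroblasts.

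The libraries marked C stood apart: on the first principal component (53.4% of the variance) the 2 C libraries lay on one side and the other 3 on the other. On the second (29.3%) the 3 anti-miR-146a libraries lay on one side and both controls on the other. What the letters stand for is not in the labels, so the fold of each member is also given within letter B and within letter C, and since the labels do not name separate cultures, p-values reflect the spread among these 5 libraries alone, part or all of which may be technical. The rows used held 8430859 to 8748287 reads in anti-miR-146a libraries and 8556206 to 9283950 in control libraries, which is part of each library. Fibroblast markers were abundant (10 of 14 listed genes had a row, summing to between 197422 and 233743 normalized reads in anti-miR-146a libraries and between 176099 and 249524 in control libraries). The epithelial markers, of which 7 had a row, summed to at most 97.7 normalized reads in an anti-miR-146a library and 101 in a control library, with KRT5 at 0 in every library and CDH1 at 0.944 (1 read) in anti-miR-146a library A and 0 in the other 4. CLDN4 was the highest of them, at 66.1, 70.3 and 43.5 in anti-miR-146a libraries A, B and C. It had 55.4 and 43.8 in control libraries B and C. ELF3 had 21.7, 17.3 and 6.07 in anti-miR-146a libraries A, B and C, against 35.3 and 22.4 in controls B and C. The endothelial markers (5 with a row) summed to at most 84.0 normalized reads in an anti-miR-146a library and 74.6 in a control library, and the blood cell markers (8 with a row) to at most 77.6 in an anti-miR-146a library and 56.0 in a control library. Bulk RNA cannot tell fewer cells that express a gene from less RNA per cell.

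The labels name the antagomir's target as miR-146a, without the arm. The sequence of miR-146a-5p is shown to set its seed, bases 2 to 8 in capitals, beside the match found in one kinase gene. The sequence is that of RefSeq (GRCh38.p14, chr5:160485372-160485393, plus strand).
hsa-miR-146a-5p: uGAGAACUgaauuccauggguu
The 3′ UTRs were searched on the transcript strand for 7 bases pairing to the seed (AGTTCTC), for the 6-base core followed by A (GTTCTCA) and for their overlap (AGTTCTCA). Of the 8 genes, only CDK6 held a match in its longest annotated 3′ UTR (GENCODE 29), 1 AGTTCTC at chr7:92614117-92614123 (GRCh38, minus strand), in capitals below within 30 bases of the UTR.
CDK6 match: ttttggtttggagagtAGTTCTCtctaact
A match occurred in 17.3% of the 6974 protein-coding genes searched. The CDK6 3′ UTR is long, at 10219 bases, and 79.1% of the 86 other genes with a 3′ UTR of like length held a match. CCND2, with a 3′ UTR of 5341 bases, held none, where 52.6% of genes of like length did. A match is a description of the letters and not a shown target site.

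No member passed in the comparison of antagomirs, and neither did any other gene. With limma on log2(normalized value + 1), 0 of 6317 genes tested had an adjusted p (Benjamini-Hochberg over all tested genes) under 0.05, or 0% in each direction, and 11.3% had an unadjusted p under 0.05. Of the 8 members, 4 had a positive and 4 a negative log2 fold change, with a median of 0.03 against 0.00455 over all genes tested. Of the 6317 genes tested, 3216 were above and 3101 below 0. On recovered whole reads, edgeR called 0 of these genes (706 at an unadjusted p under 0.05) and DESeq2 called 50 (0.792%), none of them a member.

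CCND1 (ENSG00000110092.3, chr11:69641087-69654474, GRCh38 as for the others) encodes cyclin D1, the D cyclin most closely tied to RAS and ERK signalling. It had 37819, 36649 and 51743 normalized reads in anti-miR-146a libraries A, B and C, against 33178 and 47945 in control libraries B and C. The groups overlapped, and the 2 highest values were those of the C libraries. The log2 fold change was 0.06 (SE 0.23, limma adjusted p 0.95), with 1.10-fold for library B over control B and 1.08-fold for library C over control C. The log2 fold change was −0.21 with control B left out and −0.0994 with library anti-miR-146a C left out. Leaving out a control or anti-miR-146a C, here and below, mixes letter with antagomir. The groups then differ more in their share of C libraries.

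CCND2 (ENSG00000118971.7, chr12:4273772-4305350) encodes cyclin D2, which binds the same kinases. It had 2506, 2171 and 4718 normalized reads in anti-miR-146a libraries A, B and C, against 2035 and 4281 in control libraries B and C. Within each letter the antagomirs were close (1.07-fold in letter B and 1.10-fold in letter C), whereas the C libraries held about 2.01 times the mean of the others. The log2 fold change over all libraries was −0.000741 (SE 0.42, limma adjusted p 1.00), and it ranged from −0.54 without control B to 0.54 without control C.

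CCND3 (ENSG00000112576.12, chr6:41934933-42050357) encodes cyclin D3, the third partner of CDK4 and CDK6. It had 805, 855 and 909 normalized reads in anti-miR-146a libraries A, B and C, against 673 and 880 in control libraries B and C. Control B was the lowest library and control C lay among the anti-miR-146a values. The log2 fold change was 0.15 (SE 0.15, limma adjusted p 0.745), with 1.27-fold in letter B and 1.03-fold in letter C, and −0.04 without control B.

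CCNE1 (ENSG00000105173.13, chr19:29811898-29824308) encodes cyclin E1, the main activating subunit of CDK2 at the start of S phase. It had 330, 265 and 347 normalized reads in anti-miR-146a libraries A, B and C, against 299 and 329 in control libraries B and C. The controls lay within the range of the anti-miR-146a libraries, and the log2 fold change was −0.00807 (SE 0.16, limma adjusted p 0.993). CCNE2 (ENSG00000175305.17), the second E cyclin gene, was the lowest member. It had 48.1, 45.6 and 60.7 normalized reads in anti-miR-146a libraries A, B and C, against 50.6 and 56.0 in control libraries B and C. These rest on 50 to 60 reads per library, and the exact 95% Poisson intervals, which cover counting error only, ran from 33.9 to 60.2 normalized reads in the lowest library (anti-miR-146a B) and from 46.3 to 78.1 in the highest (anti-miR-146a C). The log2 fold change was −0.06 (SE 0.23, limma adjusted p 0.951), and the groups overlapped.

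CDK4 (ENSG00000135446.16, chr12:57747727-57756013) is the kinase of D cyclins that drives G1 progression in most cell types, and it was the one member whose groups did not overlap. It had 2924, 3059 and 2688 normalized reads in anti-miR-146a libraries A, B and C, against 2401 and 2264 in control libraries B and C. Every anti-miR-146a library lay above both controls, as it did for 16.5% of all genes tested, so a single such gene among 8 is near that background. The mean was 2890 ± 188 in anti-miR-146a libraries (SD, n = 3) and 2332 ± 96.4 in controls (SD, n = 2), a ratio of 1.24. The log2 fold change was 0.31 (SE 0.10), and it did not pass in limma (adjusted p 0.381, unadjusted p 0.0244). The fold was 1.27 in letter B and 1.19 in letter C, and the log2 fold change lay between 0.27 and 0.36 with any 1 library left out. With the C libraries as a term of the limma fit, 546 genes passed as higher (8.64%) and 429 as lower (6.79%), and CDK4 was among the higher ones (log2 fold change 0.29, SE 0.08, adjusted p 0.0231). That term sets libraries A and B together. It was chosen knowing that the C libraries stood apart in these data, which its adjusted p-values do not allow for. With the letters A, B and C as a block CDK4 did not pass (0.30, limma adjusted p 0.0852). In the authors' deposited table CDK4 has a fold change of 1.24, a p-value of 0.0181 and an adjusted p-value of 0.221, and no member has an adjusted p-value under 0.05, which 2.57% of the rows with one have.

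The promoter of CDK4 is shown because CDK4 was the member with separated groups and because it is a known target of MYC, a transcription factor that binds the E-box CACGTG. RefSeq sequences of this kind (250 bases before to 50 after a start site) were matched for 4 of the 8 genes, CCND3, CCNE1, CDK4 and CDK6. The CDK4 window (GRCh38.p14, chr12:57752261-57752560, minus strand) held 3 copies of CACGTG, in capitals below, which begin 216, 196 and 101 bases before the start site. Of the 2 CDK6 windows, 1 held 1 copy, beginning 30 bases after its start site, and the windows of CCND3 and CCNE1 held none.
CDK4 promoter: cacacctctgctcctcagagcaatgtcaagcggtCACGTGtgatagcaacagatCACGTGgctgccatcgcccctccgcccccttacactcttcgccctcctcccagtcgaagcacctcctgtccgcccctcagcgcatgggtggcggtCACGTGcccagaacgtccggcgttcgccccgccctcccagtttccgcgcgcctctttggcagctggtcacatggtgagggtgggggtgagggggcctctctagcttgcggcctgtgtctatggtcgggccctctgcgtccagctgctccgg
The motif reads the same on both strands. It occurred at least 1 time in 7.26% of the 35116 promoters of this length, and 3 or more times in 33 of them, or 0.094%. Gene and motif were chosen with the link to MYC already known, so these shares describe the promoter and test nothing about the CDK4 difference. MYC itself was not analysed here, and the letters say nothing of whether it was bound.

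CDK6 (ENSG00000105810.9, chr7:92604921-92836594), the second kinase of D cyclins, had 3625, 2841 and 6013 normalized reads in anti-miR-146a libraries A, B and C, against 2683 and 4317 in control libraries B and C. Anti-miR-146a C was the highest library, control C the next, and the groups overlapped. The log2 fold change was 0.22 (SE 0.35, limma adjusted p 0.853). The fold was 1.06 in letter B and 1.39 in letter C. With the C libraries as a term the log2 fold change was 0.35 (SE 0.10, limma adjusted p 0.0283). In the fit with no such term it was −0.13 with library control B left out and −0.0846 with library anti-miR-146a C left out. The first leaves control C as the only control, and the second leaves no C library with anti-miR-146a. Letter and antagomir cannot be told apart in those values. Of the 8 members, 2 passed with that term, CDK4 and CDK6, both as higher, beside the 8.64% of all genes. With the letter as a block CDK6 did not pass (0.28, limma adjusted p 0.106), nor did any other member. CDK2 (ENSG00000123374.10, chr12:55966769-55972784), the partner of E cyclins, had 783, 744 and 654 normalized reads in anti-miR-146a libraries A, B and C, against 828 and 675 in control libraries B and C. The groups overlapped, and the log2 fold change was −0.05 (SE 0.14, limma adjusted p 0.936), with 0.898-fold in letter B and 0.969-fold in letter C.

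**Figure D1:**
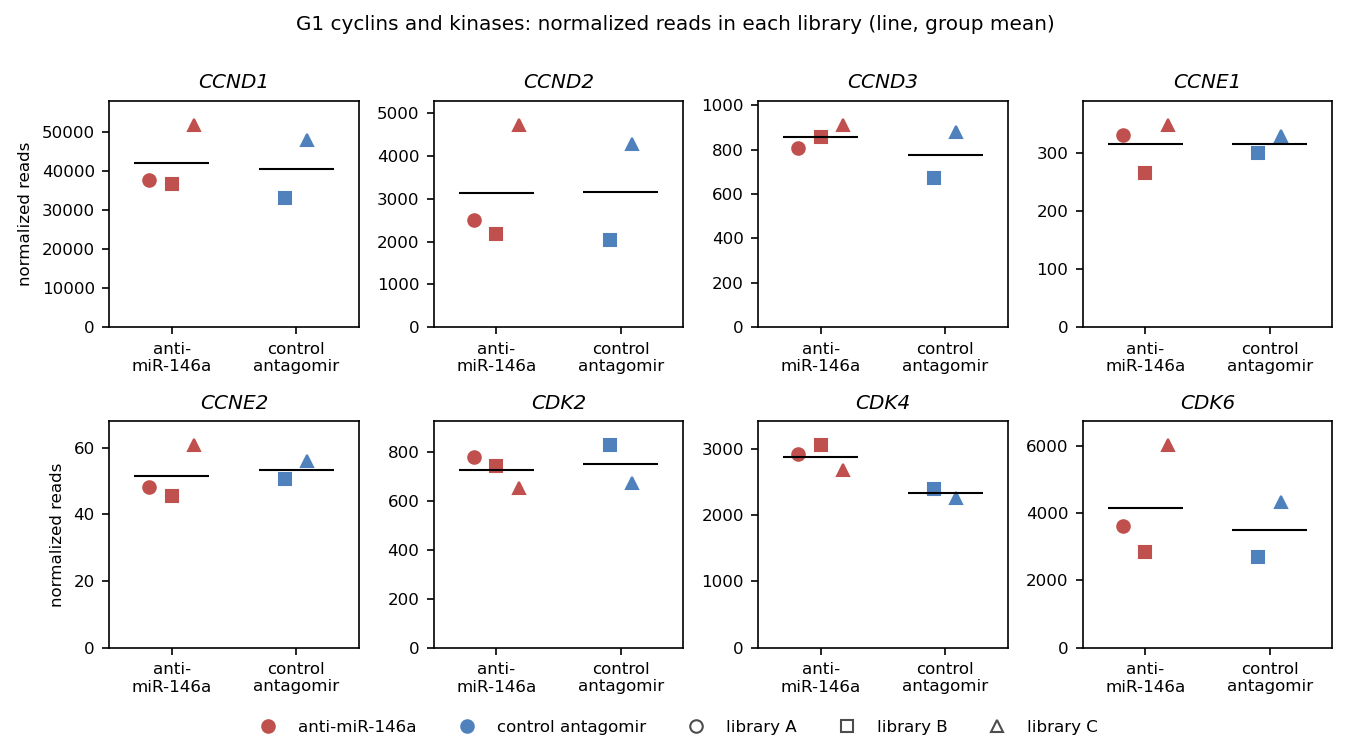
Normalized reads (linear axis from 0) of the 8 genes in each library, with anti-miR-146a libraries in red, control antagomir libraries in blue, the letter as the marker shape and a line at each group mean. The CDK4 values of 2688 to 3059 in anti-miR-146a libraries lie above the 2264 and 2401 of the controls, and the triangles of library C are the highest for CCND1, CCND2, CCND3, CCNE2 and CDK6.

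Within letters, 5 of the 8 members were higher with anti-miR-146a in both letter B and letter C, the 3 D cyclins with CDK4 and CDK6, where 35.6% of all genes tested were, and 1 was lower in both, CDK2, where 30.4% of all genes were. CCNE1 and CCNE2 were lower in letter B (0.886-fold and 0.902-fold) and higher in letter C (1.05-fold and 1.08-fold). A letter has 1 library of each group, so these differences have no replicates and were not tested. With both C libraries left out, which leaves 1 control without a replicate, 3 members passed in limma as higher, CCND3, CDK4 and CDK6, and none as lower, beside 12.5% of genes as higher and 13.3% as lower.

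For 7 of the 8 members, all but CDK4, the log2 difference between library letters was larger in size than that between antagomirs. The letter difference is from the fit with the C libraries as a term, and the antagomir difference from the fit without it. The same 7 have the larger letter difference when both are taken from the fit with that term. These 7 were not set against a count over all genes tested, so the result is not shown to be particular to the members. Of the 8 genes, 5 were higher in both C libraries than in any of the other 3 (CCND1, CCND2, CCND3, CCNE2 and CDK6), where 24.3% of all genes tested were, and 1 was lower in both, CDK2, where 20.3% of all genes were. The difference of C libraries from A and B libraries, with the antagomir in the fit, is given as a description with no test. It was 1.04 on the log2 scale for CCND2 (SE 0.08), 0.81 for CDK6 (SE 0.10) and 0.50 for CCND1 (SE 0.08). It was 0.24 for CCND3 (SE 0.09), 0.27 for CCNE2 (SE 0.20) and 0.19 for CCNE1 (SE 0.12), and negative for CDK2 (−0.25, SE 0.09) and CDK4 (−0.12, SE 0.08). The CCNE2 difference rests on 60 reads in each C library against 50 to 53 in the others. Between their lowest and highest library, CCND2 and CDK6 spanned 2.32-fold and 2.24-fold and CDK4 1.35-fold, where the median gene tested spanned 1.50-fold.

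**Figure D2:**
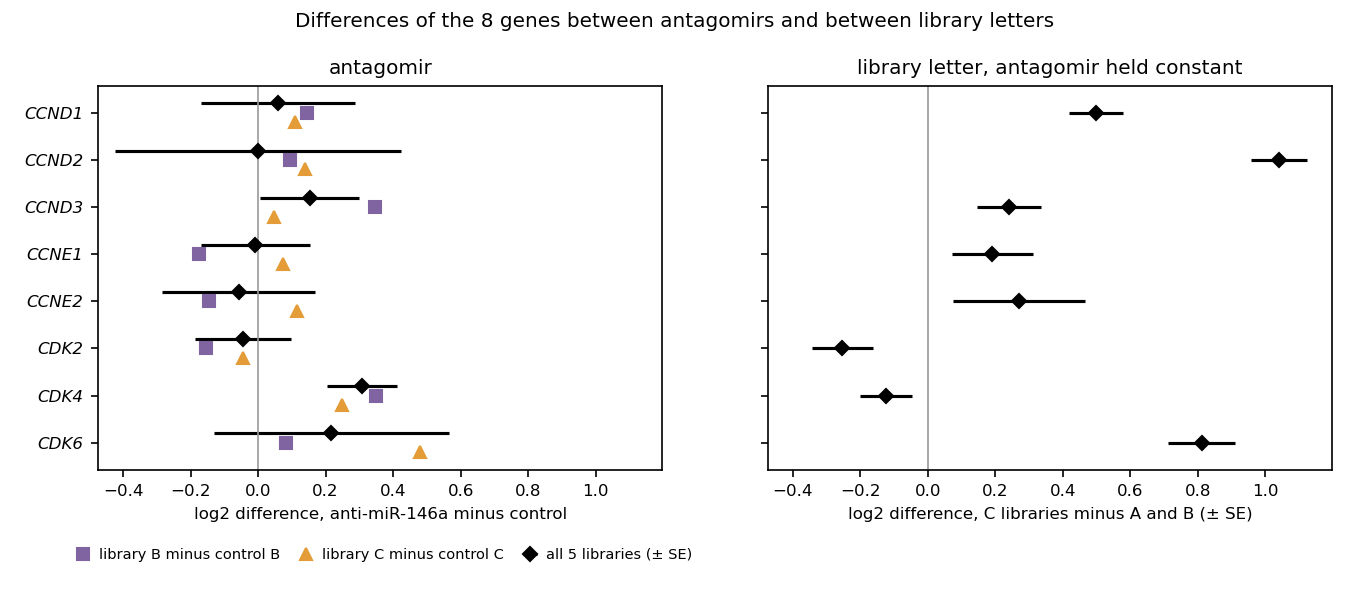
Log2 differences of the 8 genes. On the left are anti-miR-146a minus control over all 5 libraries (diamonds, ± SE) and within letters B and C (squares and triangles, no replicates), and on the right C libraries minus A and B libraries (± SE). CDK4 lies right of 0 for every antagomir difference, and CCND2 has a letter difference of 1.04 beside an antagomir difference near 0 in the fit with no C term.

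Levels of different genes were compared as normalized reads per kb of exon. CCND1 led with 8710 ± 1739 per kb in anti-miR-146a libraries (SD, n = 3) and 8398 ± 2162 in controls (SD, n = 2), apart from all other members. CDK4 followed with 912 ± 59.3 per kb in anti-miR-146a libraries and 736 ± 30.4 in controls, also apart from the next. CCND2 had 438 ± 193 per kb in anti-miR-146a libraries and 441 ± 222 in controls, and overlapped with CDK6 over the 5 libraries. CDK6 had 339 ± 135 per kb in anti-miR-146a libraries and 286 ± 94.2 in controls. CDK2 had 187 ± 16.9 per kb in anti-miR-146a libraries and 193 ± 27.8 in controls, apart from CDK6 above it and from CCND3 below it. CCND3 had 148 ± 8.97 per kb in anti-miR-146a libraries and 134 ± 25.2 in controls, and overlapped with CCNE1. CCNE1 had 123 ± 17.1 per kb in anti-miR-146a libraries and 123 ± 8.48 in controls. CCNE2 was last, with 11.7 ± 1.83 per kb in anti-miR-146a libraries and 12.1 ± 0.866 in controls (SD, n = 3 and n = 2 throughout). With the length of the longest transcript instead, 5 of the 8 kept their place: CCND3, whose annotated exons sum to 5.80 kb against 2.39 kb for its longest transcript, moved above CDK6 and CDK2, with ranges that overlapped those of CCND2, CDK6 and CDK2. CDK6 (231 to 518 per kb) and CDK2 (252 to 319) overlapped with that length too. CCND1 and CDK4 led and CCNE1 and CCNE2 came last under both lengths.

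**Figure D3:**
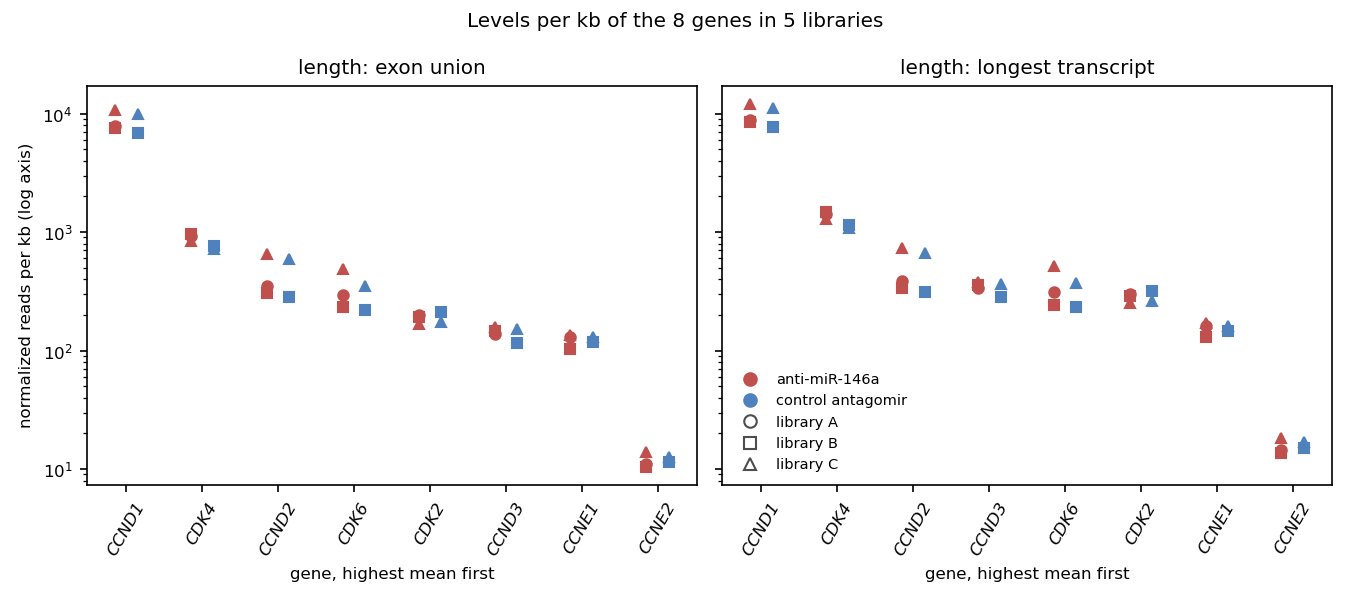
Normalized reads per kb (log axis) of the 8 genes, ordered by their mean over 5 libraries, with the summed exon length on the left and the longest transcript on the right. CCND1 stands about 1 order of magnitude above CDK4, and CCNE2 about 1 order below CCNE1, under both lengths.

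On the per-kb scale with summed exon length, CCND1 made up 94.1%, 94.4% and 92.9% of the summed D cyclin level in anti-miR-146a libraries A, B and C, against 94.5% and 93.0% in control libraries B and C. CCND2 gave 4.21%, 3.77% and 5.72% in anti-miR-146a libraries A, B and C, against 3.91% and 5.60% in control libraries B and C, so its share was larger in both C libraries. The ratio of CDK4 to CDK6 per kb was 3.12, 4.17 and 1.73 in anti-miR-146a libraries A, B and C, against 3.46 and 2.03 in control libraries B and C. The lowest ratios were those of the C libraries, where CDK6 was high, and the groups overlapped. The summed D cyclins over the summed CDK4 and CDK6 gave 6.83, 6.71 and 8.61 in anti-miR-146a libraries A, B and C, against 7.44 and 10.0 in control libraries B and C. The ratio was lower with anti-miR-146a within each letter, while the groups overlapped. CCNE1 made up 90.8% to 92.2% of the E cyclin level in anti-miR-146a libraries and 91.0% to 91.1% in controls.

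**Figure D4:**
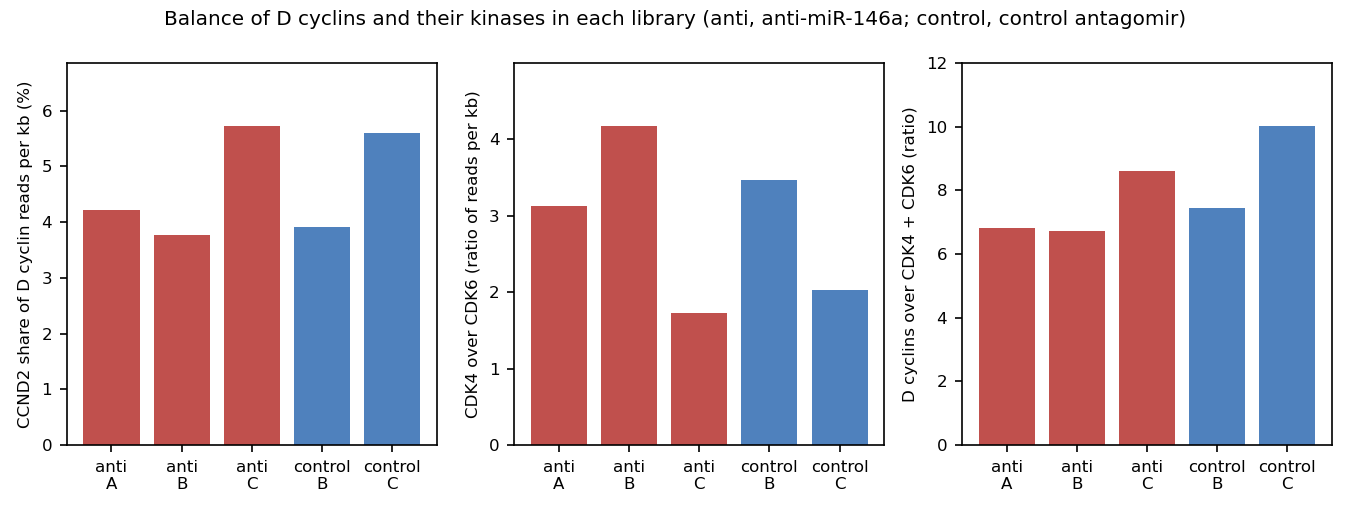
Per library, anti-miR-146a in red and control antagomir in blue, the percentage of D cyclin reads per kb that came from CCND2, the ratio of CDK4 to CDK6 per kb, and the ratio of summed D cyclins to summed CDK4 and CDK6 per kb (bars from 0, 1 library each). The 2 C libraries have the largest CCND2 shares (5.72% and 5.60%) and the lowest CDK4 to CDK6 ratios (1.73 and 2.03).

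Members of a family are alike in coding sequence, but not near-identical. The longest annotated coding sequences were 67.0% identical between CCND1 and CCND2, 61.8% between CCND1 and CCND3 and 67.0% between CCND2 and CCND3, with no identical run over 23 bases. CCNE1 and CCNE2 were 58.5% identical and CDK4 and CDK6 62.8%. Other protein-coding genes lie over several members: LTO1 over the end of CCND1, PMEL over all of CDK2, TSPAN31 and MARCH9 over CDK4 and INTS8 and NDUFAF6 over CCNE2, all on the opposite strand, and AC008012.1 over CCND2 on the same strand. No source used here says whether the authors counted by strand, so reads of these pairs may not be fully told apart. Of these neighbours, MARCH9 had a row, with 287, 270 and 237 normalized reads in anti-miR-146a libraries A, B and C, against 267 and 187 in control libraries B and C.

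For each D cyclin the 2 genes with the most similar pattern were taken, by the root mean square difference of centred log2 values over the 5 libraries among 4177 genes with a mean of at least 100 normalized reads. For CCND1 these were ABLIM3 (0.0316) and ETS1 (0.0323), where the median gene differed by 0.283. ETS1, a transcription factor downstream of RAS and ERK, had 7707, 7430 and 11141 normalized reads in anti-miR-146a libraries A, B and C, against 6752 and 9961 in control libraries B and C. For CCND2 they were CSF2 (0.0493) and GALNT6 (0.0570), with a median of 0.520. CSF2, the cytokine GM-CSF, had 2703, 2542 and 5591 normalized reads in anti-miR-146a libraries A, B and C, against 2393 and 4924 in control libraries B and C. For CCND3 they were BOP1 (0.0102) and BACE2 (0.0222), with a median of 0.226. All 6 were higher in both C libraries than in the others, a pattern that the choice by likeness to the D cyclins fixes. Among the members, the closest pair was CCNE1 and CCNE2 (0.0947) and the farthest CCND2 and CDK2 (0.627). CCNE2 rests on 50 to 60 reads per library, and genes that vary little lie close by this measure. The E cyclins are therefore not shown to vary together.

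The genes around the G1 kinases were taken as 8 lists with 130 genes, of which 99 were tested, and none passed in limma in either direction. Their median log2 fold change was −0.06 against 0.00455 over all genes. Of the 99, 37 were above and 62 below 0, beside 3216 above and 3101 below among all 6317 genes tested. Every anti-miR-146a library lay below both controls for 24 of the 99 and above both for 6, beside 13.5% and 16.5% of all genes. With the C libraries as a term 7 passed as higher and 15 as lower, beside 8.64% and 6.79% of all genes. With the letter as a block in place of that term, 4 passed as higher and 10 as lower, beside 5.65% and 4.42% of all genes. Genes outside the 3 most abundant of a list are named below because they passed with the C term, so they were chosen after their values were seen.

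All 8 inhibitors of these kinases were tested, with 2 above and 6 below 0. CDKN1A, which encodes p21, had 24750.3, 25919.5 and 31721 normalized reads in anti-miR-146a libraries A, B and C, against 16589.9 and 26149.5 in control libraries B and C. The groups overlapped through control C, and the log2 fold change was 0.39 (SE 0.22, limma adjusted p 0.551). The fold was 1.56 in letter B and 1.21 in letter C, and CDKN1A passed in limma as higher with the C libraries as a term (log2 fold change 0.47, adjusted p 0.004) and with the letter as a block (0.46, adjusted p 0.00317). CDKN2B, which encodes the CDK4 and CDK6 inhibitor p15, had 675, 796 and 725 in anti-miR-146a libraries A, B and C, against 879 and 943 in control libraries B and C. Its groups did not overlap, and it did not pass (log2 fold change −0.32, SE 0.12, limma adjusted p 0.411). It passed as lower with the C term (−0.31, limma adjusted p 0.0431) and not with the block (adjusted p 0.214), and these were the 2 of the 8 inhibitors that passed with the C term. CDKN1B, which encodes p27, had a log2 fold change of −0.00495 (SE 0.25).

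Of 13 RB, E2F and DP genes 6 were tested, all E2F factors, and all 6 were below 0, with a median of −0.14. The most abundant were E2F7, a repressor E2F (log2 fold change −0.14, SE 0.21), E2F3, an activator (−0.13, SE 0.12), and E2F4, which represses cell cycle genes in resting cells (−0.20, SE 0.10). Of 24 E2F target genes of S phase entry 13 were tested, 5 above and 8 below 0, with a median of −0.20. The most abundant had groups that did not overlap and did not pass: CHAF1A, a chromatin assembly subunit (−0.36, SE 0.17), FEN1, a flap endonuclease of replication (−0.40, SE 0.13), and DBF4, the activator of the CDC7 kinase (−0.45, SE 0.19), each with limma adjusted p between 0.381 and 0.471. With the C libraries as a term 4 of the 13 passed as lower and 0 as higher, beside 6.79% and 8.64% of all genes: the 3 above and CCNA2 (cyclin A2, log2 fold change −0.65, limma adjusted p 0.00335). With the letter as a block FEN1 did not pass (limma adjusted p 0.0659), while CHAF1A, DBF4 and CCNA2 did. None of the 6 E2F factors passed with the C term. CCNA2 had 224, 204 and 139 normalized reads in anti-miR-146a libraries A, B and C, against 349 and 208 in control libraries B and C.

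Of 6 activators of CDKs 5 were tested. CDC25B, a phosphatase that activates CDKs, had 1510, 1556 and 1109 normalized reads in anti-miR-146a libraries A, B and C, against 1152 and 866 in control libraries B and C. The groups overlapped, and the log2 fold change was 0.46 (limma adjusted p 0.452), but CDC25B passed as higher with the C term (0.39, adjusted p 0.0074) and with the block (0.39, adjusted p 0.0223). CDC25A, another such phosphatase, passed as lower with the C term (−0.40, limma adjusted p 0.0306) and not with the block (adjusted p 0.0895). CCNH and CDK7, subunits of the CDK-activating kinase, had log2 fold changes of 0.18 (SE 0.14) and −0.24 (SE 0.13). Among 16 tested genes of cyclin degradation, 8 were above and 8 below 0, and the most abundant were DDB1 (0.06, SE 0.10), CUL3 (−0.10, SE 0.10) and CDC27 (0.10, SE 0.09). With the C term 1 of the 16 passed as higher, ANAPC1 of the anaphase-promoting complex (0.39), and 3 as lower, CKS2 (−0.57), the ubiquitin ligase subunit FBXW7, which recognises cyclin E (−0.41), and CUL1, the SCF scaffold (−0.38). With the block ANAPC1 did not pass (limma adjusted p 0.0612), while CKS2, FBXW7 and CUL1 did. Beside this C term count and those below, 8.64% of all genes passed as higher and 6.79% as lower with that term. The next list held 19 tested genes of the pathways that induce D cyclins. Not all are inducers, since its DUSP genes encode phosphatases that act against ERK. Of the 19, 9 were above and 10 below 0, with EGFR at 0.27 (SE 0.18), CEBPB at 0.03 (SE 0.14) and ETS2 at 0.09 (SE 0.13). In both C libraries 8 of the 19 were higher than in the other 3, beside 24.3% of all genes. With the C term 1 of the 19 passed as higher, EGFR (0.33, limma adjusted p 0.0211), and 2 as lower, the ERK phosphatase gene DUSP5 (−0.29) and FOS (−0.27). With the block DUSP5 passed (limma adjusted p 0.0453), and EGFR (0.149) and FOS (0.221) did not. Of the 17 other cyclins tested, the most abundant were CCNI (−0.07, SE 0.13), CCNL1, which acts in splicing (−0.33, SE 0.10), and CCNG1, a p53 target (0.03, SE 0.18). With the C term 1 of the 17 passed as higher, CCNJL (0.44), and 3 as lower, the mitotic cyclin gene CCNB1 (−0.47), CCNL1 (−0.31) and CCNL2 (−0.27). With the block CCNB1 passed (limma adjusted p 0.00738), and CCNJL (0.122), CCNL1 (0.0703) and CCNL2 (0.118) did not. Of the 15 other CDKs, the most abundant were the transcription kinases CDK12 (−0.03, SE 0.11) and CDK13 (−0.03, SE 0.11), and CDK17 (0.33, SE 0.17). CDK17 passed as higher with the C term (0.39, limma adjusted p 0.00543) and with the block (0.37, adjusted p 0.0224). The C term also called CDK5 as higher (0.49) and CDK1, the kinase of mitotic entry, as lower (−0.69), so 2 of the 15 passed as higher and 1 as lower. CDK5 (limma adjusted p 0.0216) and CDK1 (0.00295) passed with the block too. None of the genes named from the lists passed in the limma fit of all 5 libraries that had the antagomir as its one term.

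**Figure D5:**
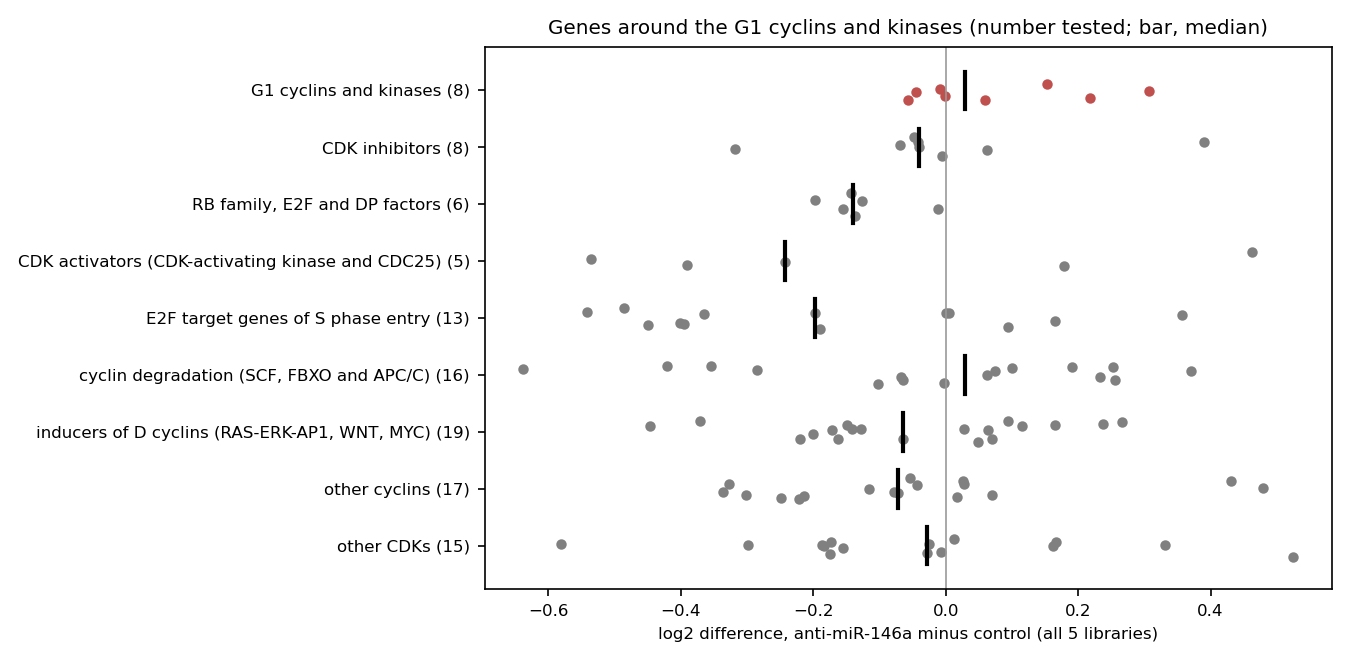
Log2 difference, anti-miR-146a minus control over all 5 libraries, of each tested gene of the 8 members (red) and of the 8 lists (grey), with the median as a bar and the number tested in parentheses. The list medians run from −0.24 (CDK activators) to 0.03 (cyclin degradation), and the members' median is 0.03.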

How the data were processed

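The submitters' processing notes name Trimmomatic 0.35, STAR 2.5.1b, DESeq2 1.22.2 and the build GRCh38. Ribosomal RNA was depleted from total RNA, per the labels' protocols. No source used here states the counter, its strand setting or the annotation release. The deposited values are a signal, the read count divided by a size factor by the authors, with the authors' fold change (a ratio, anti-miR-146a over control) and the authors' p-values. Every deposited value was a whole multiple of its library's step (100%, tolerance 1e-06), so reads were recovered. Column names carry the antagomir and a letter, which ties each to a group but to no single sample.

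Because the values are normalized, limma 3.58.1 with trend was fitted on log2(value + 1) over the 6317 genes with at least 10 in at least 2 libraries, so fold changes of low genes are understated. The threshold was an adjusted p of 0.05. Alternatives changed the test (edgeR 4.0.16, DESeq2 1.42.0, voom), scaling, filter, pseudocount, threshold, libraries and terms. Lengths, UTRs and overlaps came from GENCODE 29, whose positions were identical for 17390 of 17390 matched rows. The members, the lists and the C term were chosen with earlier results of these data known. Genes named from lists were the 3 with the highest mean in each, and others are said to be chosen after their values were seen. Protein sequences were not used here, so family likeness was computed on coding sequences.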

Additional observations from a re-analysis of the deposited data

How the results depend on the processing

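CDK4 kept a positive log2 fold change in all 19 alternatives (0.27 to 0.36). Those that change only the filter or the threshold leave the fold change of a gene as it was, so their sign was fixed in advance. CDK4 passed in 2 of the 19, with the C libraries as a term (0.29) and with both C libraries left out (0.32), where the 1 remaining control has no replicate and its spread is assumed to be that of the other group. CDK6 passed in the same 2 (0.35 and 0.26) and CCND3 without both C libraries (0.30); the cause was not tested. Leaving out 1 library in turn gave log2 fold changes from −0.21 to 0.32 for CCND1, −0.54 to 0.54 for CCND2, −0.0402 to 0.35 for CCND3, −0.0846 to 0.11 for CCNE1, −0.18 to 0.0224 for CCNE2, −0.19 to 0.10 for CDK2, 0.27 to 0.36 for CDK4 and −0.13 to 0.56 for CDK6. Leaving out a control or anti-miR-146a C makes the groups differ more in their share of C libraries, so these ranges mix letter and antagomir. The sign of CCND2 turned positive with library totals as the scaling (0.0401), with the C libraries as a term (0.17) and without both (0.20), and that of CCNE1 with library totals (0.0327) and with the C term (0.0238). Over all genes, 0 passed in the main setting, 36 as higher and 14 as lower in DESeq2, 546 and 429 with the C term, and 759 and 809 without both C libraries. Without 1 library the counts ran from 0 to 1 as higher and from 0 to 11 as lower, the calls coming with library anti-miR-146a C left out. In the lists, 7 genes passed as higher and 15 as lower with the C term, 11 and 18 without both C libraries, and 0 without any 1 library. Deviations from the group means correlated at 0.661 between the C libraries and at 0.505 between the B libraries. Anti-miR-146a A correlated with control B at 0.532, above the value of the B libraries. The deviations of the 2 controls are exact opposites, and 2 shared letters do not establish pairing. With the letter as a replicate block, 357 genes passed as higher and 279 as lower, 4 and 10 of them in the lists, and no member; CCND2 was then at 0.12. Other scalings, filters, pseudocounts and thresholds changed no member's call. For CCNE2, the member with the fewest reads, counting error alone spans 33.9 to 60.2 normalized reads in the lowest library.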
